A study of Mus musculus with 6 samples.

Results

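The genes described here encode neuronal nicotinic acetylcholine receptor subunits: Chrna3, Chrna4, Chrna5, Chrna6, Chrna7, Chrnb2, Chrnb3 and Chrnb4. They were taken by gene symbol from the array annotation, using every probe set that carried exactly 1 symbol and had that symbol among these 8, which gave 18 probe sets of the 34945 with 1 symbol (8 of 18193 genes). The stellate ganglia came from male C57/Bl6 mice, 3 with transverse aortic constriction (TAC), which narrows the aorta and raises the pressure load on the heart, and 3 with a sham operation, all taken 8 weeks after surgery. Both stellate ganglia of 1 animal were extracted together and gave 1 Affymetrix array, so each array holds all cell types of the ganglion. The arrays are named TAC A, B and C and sham A, B and C after their titles. Values are log2 GCRMA intensities, and a probe set with a mean log2 under 4 over all 6 arrays is called dim and was not tested.

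Nicotinic receptors are pentamers of subunits around a cation channel that acetylcholine opens. In sympathetic ganglia they carry the fast synapse from the preganglionic axon to the noradrenergic neuron, and receptors with the α3 and β4 subunits are known as the main ganglionic type. The α5 subunit joins such receptors as an accessory subunit, β2 can take the place of β4, and α7 forms receptors of its own with high calcium permeability. The α4 subunit with β2 is the main high-affinity type of the brain, and α6 and β3 are best known from dopamine neurons and the retina.

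The genes Chrna5, Chrna3 and Chrnb4 follow one another on chromosome 9, and Chrnb3 lies next to Chrna6 on chromosome 8. RefSeq windows around the gene start (250 bases before to 50 bases after it, build GRCm38.p6) were at hand for 6 of the 8 genes, in 7 windows. The windows of the 3 genes of the chromosome 9 cluster are shown because all 3 were measured above the floor, that of Chrna7 because it had the largest difference between the groups, and that of Chrna4 as a gene with dim probe sets alone. They lie at chr9:55026513-55026812 (minus strand) for Chrna3, chr9:54981238-54981537 (plus strand) for the second of 2 listed starts of Chrna5, chr9:55048495-55048794 (minus strand) for Chrnb4, chr7:63212477-63212776 (minus strand) for Chrna7 and chr2:181039128-181039427 (minus strand) for Chrna4. All are written 5′ to 3′ on the strand of the gene. Capitals mark the GC box GGGCGG on either strand, a motif that the factors Sp1 and Sp3 are known to bind.
Chrna3: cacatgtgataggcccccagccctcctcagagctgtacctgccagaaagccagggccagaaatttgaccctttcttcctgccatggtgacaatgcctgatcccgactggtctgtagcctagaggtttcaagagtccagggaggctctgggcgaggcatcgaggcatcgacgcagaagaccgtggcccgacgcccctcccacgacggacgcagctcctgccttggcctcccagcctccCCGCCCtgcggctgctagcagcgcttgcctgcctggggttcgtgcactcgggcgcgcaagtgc
Chrna5: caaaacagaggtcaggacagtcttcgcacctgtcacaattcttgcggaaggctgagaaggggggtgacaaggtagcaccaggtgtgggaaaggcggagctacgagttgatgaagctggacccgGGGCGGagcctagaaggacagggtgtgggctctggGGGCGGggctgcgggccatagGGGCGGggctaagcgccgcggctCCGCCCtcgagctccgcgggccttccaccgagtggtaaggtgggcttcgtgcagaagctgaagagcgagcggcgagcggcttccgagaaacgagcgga
Chrnb4: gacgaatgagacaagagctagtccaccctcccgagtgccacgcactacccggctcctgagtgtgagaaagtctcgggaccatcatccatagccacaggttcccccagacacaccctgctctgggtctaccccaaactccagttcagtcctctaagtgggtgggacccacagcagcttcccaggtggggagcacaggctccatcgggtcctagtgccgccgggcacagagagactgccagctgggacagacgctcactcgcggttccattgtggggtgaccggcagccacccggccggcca
Chrna7: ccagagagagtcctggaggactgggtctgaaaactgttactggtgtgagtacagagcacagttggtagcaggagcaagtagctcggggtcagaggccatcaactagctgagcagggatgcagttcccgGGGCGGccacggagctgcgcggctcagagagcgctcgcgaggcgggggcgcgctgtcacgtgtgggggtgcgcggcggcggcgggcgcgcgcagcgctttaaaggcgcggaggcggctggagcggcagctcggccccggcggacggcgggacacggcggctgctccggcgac
Chrna4: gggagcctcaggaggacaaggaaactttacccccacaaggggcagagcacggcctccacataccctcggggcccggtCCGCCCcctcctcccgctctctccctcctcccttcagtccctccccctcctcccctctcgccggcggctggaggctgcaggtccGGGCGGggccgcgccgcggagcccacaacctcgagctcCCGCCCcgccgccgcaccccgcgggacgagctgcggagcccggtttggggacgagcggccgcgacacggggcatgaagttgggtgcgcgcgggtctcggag

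The GC box was found 4 times in the second Chrna5 window, which was chosen for display after the motif search, while the window at the first listed start had no match. It was found 1 time in each of the Chrna3, Chrna7 and Chrnb2 windows and 3 times in the Chrna4 window, and it had no match in the Chrnb4 window. It was present in 35.7% of all 32851 RefSeq windows of this length, so it is common, and both measured genes and a gene with dim probe sets alone held it. The GC content of the 7 windows ran from 41.3% for the first Chrna5 window to 74.3% for Chrna4, against a median of 52.7% over all windows, and 6 of the 7 lay above that median. The Chrna7 window also held 1 match to GCGNGGGCG, a motif known for Egr factors, starting 81 bases before the gene start and not overlapping its GC box, though the 2 motifs share the letters GGGCG. That motif was present in 5.55% of all windows.

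**Figure D1:**
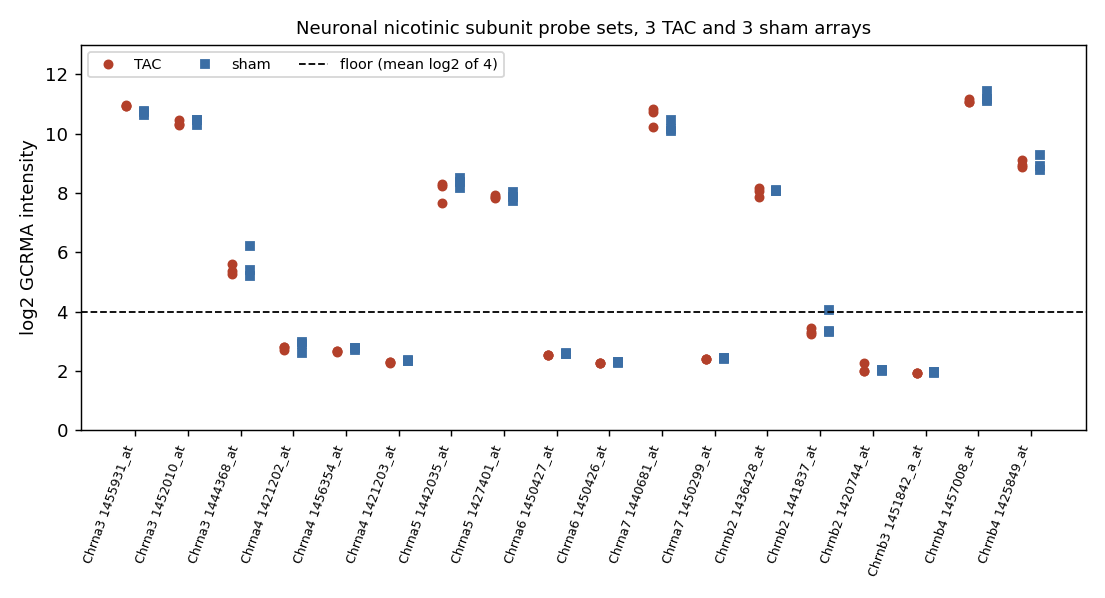
Log2 GCRMA intensity (y axis) of all 18 probe sets of the 8 subunit genes (x axis) on each of 3 TAC arrays (circles) and 3 sham arrays (squares); the dashed line is the floor of 4. The 9 probe sets above the floor belong to Chrna3, Chrna5, Chrna7, Chrnb2 and Chrnb4, and heights cannot be compared between probe sets.

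Of the 18 probe sets, 9 lay above the floor, from 5 genes: Chrna3, Chrna5, Chrna7, Chrnb2 and Chrnb4. The other 9 were dim, and they included all probe sets of Chrna4, Chrna6 and Chrnb3. No probe set lay close to the floor on its upper side: the lowest above it was Chrna3 1444368_at with a mean of 5.51 on the log2 scale, and the highest below it was Chrnb2 1441837_at with a mean of 3.45. Because each probe set has its own affinity, the log2 values do not rank the genes by transcript number.

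No subunit probe set passed limma's test after Benjamini-Hochberg adjustment over all 17550 probe sets tested (0 of 9, against 0% of all probe sets tested). The adjusted p-values of the 9 ran from 0.542 to 0.991. At an unadjusted p under 0.05 there was 1 of 9, against 9.08% of all probe sets tested; it was higher in TAC ganglia (6.03% of all) and 0 were lower (3.05% of all). The groups did not overlap for 1 of 9, against 17.9% of all, with 1 higher (9.02% of all) and 0 lower (8.85% of all). Means were higher in TAC ganglia for 3 of the 9 and lower for 6, against 43.9% lower among all probe sets tested. The median log2 difference was -0.04, against 0.03 over all probe sets tested, and the median absolute difference was 0.14, against 0.12. The smallest two-sided p of an exact permutation test is 0.1 with groups of this size.

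**Figure D2:**
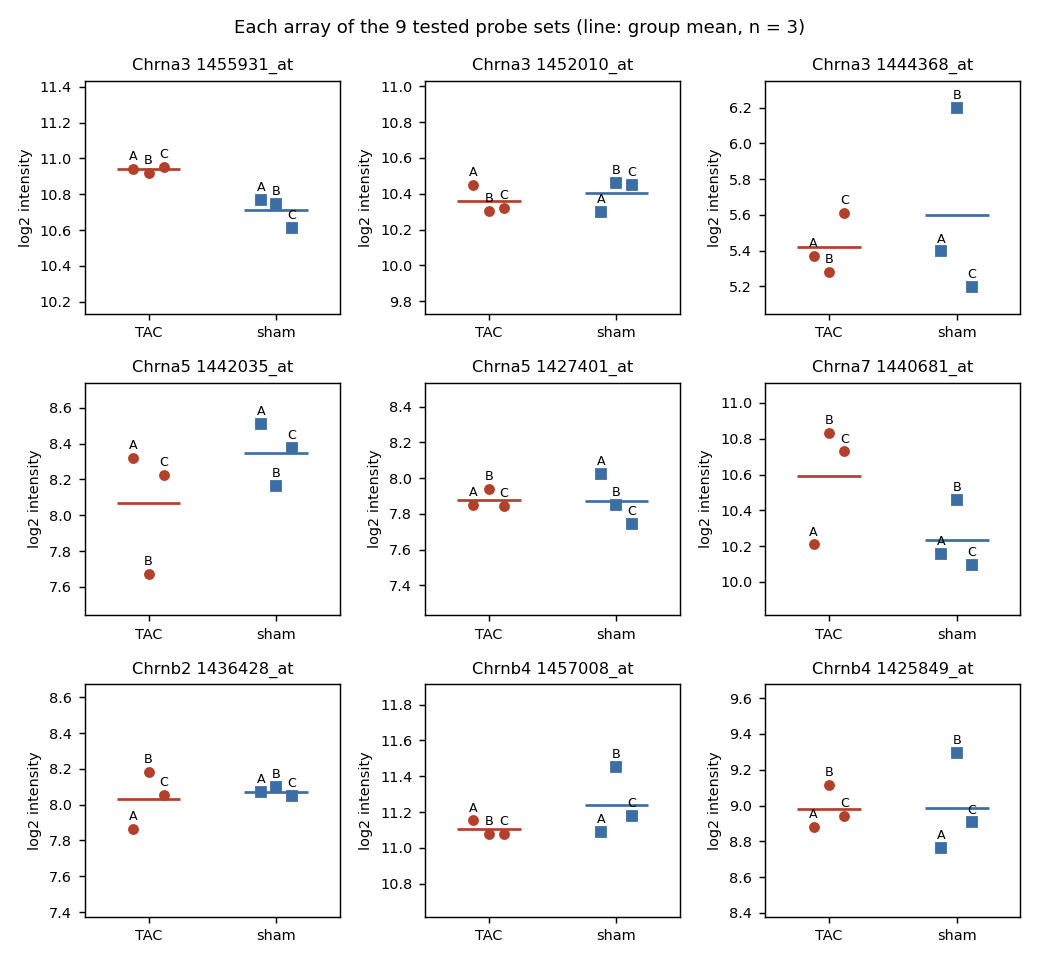
Log2 intensity of each array (letters A to C) for the 9 probe sets above the floor, TAC at the left and sham at the right of each panel; lines are group means of 3 arrays, and every panel spans the same log2 range. The groups are apart only for Chrna3 1455931_at, where TAC arrays sit at 10.92 to 10.95 and sham arrays at 10.61 to 10.77.

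Chrna3 encodes the α3 subunit, which carries the agonist-binding face of the main ganglionic receptor. Its brightest probe set, 1455931_at, measured 10.94, 10.92 and 10.95 on TAC A, B and C, against 10.77, 10.74 and 10.61 on sham A, B and C, on the log2 scale. All 3 TAC arrays lay above all 3 sham arrays. The group means were 10.94 ± 0.02 in TAC and 10.71 ± 0.08 in sham ganglia (SD, n = 3 each), a log2 difference of 0.23 or 1.17-fold with a 95% interval of 1.03 to 1.33, and limma's adjusted p was 0.542.

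The second bright Chrna3 probe set, 1452010_at, did not show this difference. It measured 10.45, 10.30 and 10.32 on TAC A, B and C, against 10.30, 10.46 and 10.45 on sham A, B and C. The groups overlapped, with means of 10.36 ± 0.08 in TAC and 10.40 ± 0.09 in sham ganglia (SD, n = 3 each) and a log2 difference of -0.05 (limma adjusted p = 0.868). The gap between the probe sets within an array, 1455931_at minus 1452010_at, was 0.49, 0.62 and 0.63 on TAC A, B and C, against 0.47, 0.28 and 0.17 on sham A, B and C. Every TAC array had a wider gap than every sham array, with TAC A at 0.49 close to sham A at 0.47. The group difference in the gap was 0.27 (two-sided exact permutation p = 0.1, and 0.5 after Benjamini-Hochberg adjustment over the 5 within-gene pairs of probe sets). As 0.1 is the smallest possible p, this test cannot settle whether the probe sets differed unequally between the groups.

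The third, dimmer Chrna3 probe set, 1444368_at, measured 5.37, 5.28 and 5.61 on TAC A, B and C, against 5.40, 6.20 and 5.20 on sham A, B and C. Sham B alone stood high, and the groups overlapped (log2 difference -0.18, 95% interval -0.81 to 0.46, limma adjusted p = 0.827). With the 3 probe sets averaged, the Chrna3 difference was 0.0024 on the log2 scale (limma adjusted p = 0.994), so the 1.17-fold value rests on 1455931_at.

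Some transcripts of noradrenergic neurons had higher values on the TAC arrays. Of the 12 listed sympathetic neuron markers, 11 had a probe set with that symbol and all 11 were measured, none of them dim. Their mean log2 intensity was 12.88 to 12.89 on the TAC arrays and 12.79 to 12.85 on the sham arrays, with no overlap. The median difference over the 11 was 0.02. Over all probe sets tested, the array median was 7.43 to 7.45 on the TAC arrays and 7.36 to 7.45 on the sham arrays. At an unadjusted p under 0.05, 3 of the 11 were higher, against 5.43% of all 9955 genes, and 0 were lower, against 3.32%. The higher ones were Th by 0.24, Snap25 by 0.23 and Slc18a2 by 0.29 on the log2 scale (limma adjusted p = 0.531 for Th and 0.542 for Snap25 and Slc18a2). Groups did not overlap for the same 3 of the 11, against 17.9% of all genes. Over all 22 tested probe sets of these genes, 4 were higher and 2 lower at that p, against 6.03% and 3.05% of all probe sets tested. The lower ones were Slc6a2 1447311_at at -0.37 and Prph 1420256_x_at at -0.44 (limma adjusted p = 0.542 and 0.512). The part of these neuronal transcripts in the Chrna3 value was not tested. In whole ganglia fewer cells of a type and less RNA per cell cannot be told apart.

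Across the 6 arrays, the genes closest in pattern to Chrna3 1455931_at were Coa3, a cytochrome c oxidase assembly factor, Atp1b1, a sodium pump β subunit, and Pcdhb9, a clustered protocadherin. Closeness was the root mean square difference between log2 profiles after each was centred on its own mean, over 9950 genes. It was 0.02 for Coa3 and 0.03 for both Atp1b1 and Pcdhb9. Their log2 differences were 0.20, 0.21 and 0.23.

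Chrnb4 encodes the β4 subunit, the usual partner of α3 in ganglia. Its brighter probe set, 1457008_at, measured 11.15, 11.08 and 11.08 on TAC A, B and C, against 11.09, 11.45 and 11.18 on sham A, B and C. Sham B was the highest array and sham A lay within the TAC range. The means were 11.10 ± 0.04 in TAC and 11.24 ± 0.19 in sham ganglia (SD, n = 3 each), a log2 difference of -0.14 (95% interval -0.40 to 0.13, limma adjusted p = 0.681).

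The other Chrnb4 probe set, 1425849_at, measured 8.88, 9.11 and 8.94 on TAC A, B and C, against 8.76, 9.29 and 8.91 on sham A, B and C. Array B was the highest of each group, and the groups overlapped. The difference was -0.01 on the log2 scale with an interval of -0.38 to 0.36 (limma adjusted p = 0.990).

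Chrna5 encodes the accessory α5 subunit, which takes no direct part in the usual agonist site. Its probe set 1442035_at measured 8.32, 7.67 and 8.22 on TAC A, B and C, against 8.51, 8.16 and 8.38 on sham A, B and C. TAC B stood apart below all other arrays, and TAC A and C lay within the sham range. The log2 difference was -0.28 (95% interval -0.74 to 0.18, limma adjusted p = 0.642), and it was -0.080 without TAC B and -0.067 without both TAC B and sham C. TAC B also had the lowest level of the glial gene Fabp7, at 13.11, against 13.73 to 13.76 on the other TAC arrays and 13.80 to 14.08 on the sham arrays. Of the other glial genes measured, Apoe, Mbp and S100b were lowest on TAC B as well, by their brightest probe sets. Sox10 was lowest on sham A, at 9.37 against 9.49 on TAC B, and Pmp22 was highest on TAC B, at 12.59. All 6 measured satellite glia and Schwann cell genes were above the floor, of 8 listed, and their mean log2 intensity was 11.24 to 11.64 in TAC and 11.59 to 11.67 in sham ganglia. The part of this in the Chrna5 value was not tested.

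The second Chrna5 probe set, 1427401_at, gave 7.85, 7.94 and 7.85 on TAC A, B and C, against 8.02, 7.85 and 7.74 on sham A, B and C. The TAC arrays lay inside the sham range, with means of 7.88 ± 0.05 in TAC and 7.87 ± 0.14 in sham ganglia (SD, n = 3 each). The difference was 0.0047 on the log2 scale, with an interval of -0.23 to 0.24 (limma adjusted p = 0.991).

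Chrna7 encodes the α7 subunit of the calcium-permeable homomeric receptor. Its probe set 1440681_at measured 10.21, 10.83 and 10.73 on TAC A, B and C, against 10.16, 10.46 and 10.10 on sham A, B and C. TAC B and C lay above every sham array, while TAC A lay between sham A and sham B. The means were 10.59 ± 0.33 in TAC and 10.24 ± 0.19 in sham ganglia (SD, n = 3 each). The log2 difference of 0.35 was the largest in size among the 9 tested, 1.28-fold with a 95% interval of 0.93 to 1.75, and did not pass the test (limma adjusted p = 0.583). Leaving out single arrays moved it between 0.23, without TAC B, and 0.54, without TAC A, and it was 0.16 without both TAC B and sham C.

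The probe sets of Chrna7 disagreed on whether the gene was detected. The other one, 1450299_at, is tied in the annotation to a curated RefSeq transcript and measured 2.41, 2.41 and 2.40 on TAC A, B and C, against 2.40, 2.43 and 2.44 on sham A, B and C. All 6 values were far under the floor. The statement that Chrna7 was measured therefore rests on 1440681_at alone, and where its probes lie in the gene was not analysed here.

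Chrnb2 encodes the β2 subunit. Its probe set 1436428_at measured 7.86, 8.18 and 8.05 on TAC A, B and C, against 8.07, 8.10 and 8.05 on sham A, B and C. The sham arrays lay within the TAC range, with means of 8.03 ± 0.16 in TAC and 8.07 ± 0.02 in sham ganglia (SD, n = 3 each). The log2 difference was -0.04 (95% interval -0.28 to 0.20, limma adjusted p = 0.904). Of its other probe sets, 1441837_at averaged 3.45, with sham C alone just over the floor at 4.05, and 1420744_at, which is also tied to a curated RefSeq transcript, averaged 2.05. As for Chrna7, detection of Chrnb2 rests on 1 of its probe sets.

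**Figure D3:**
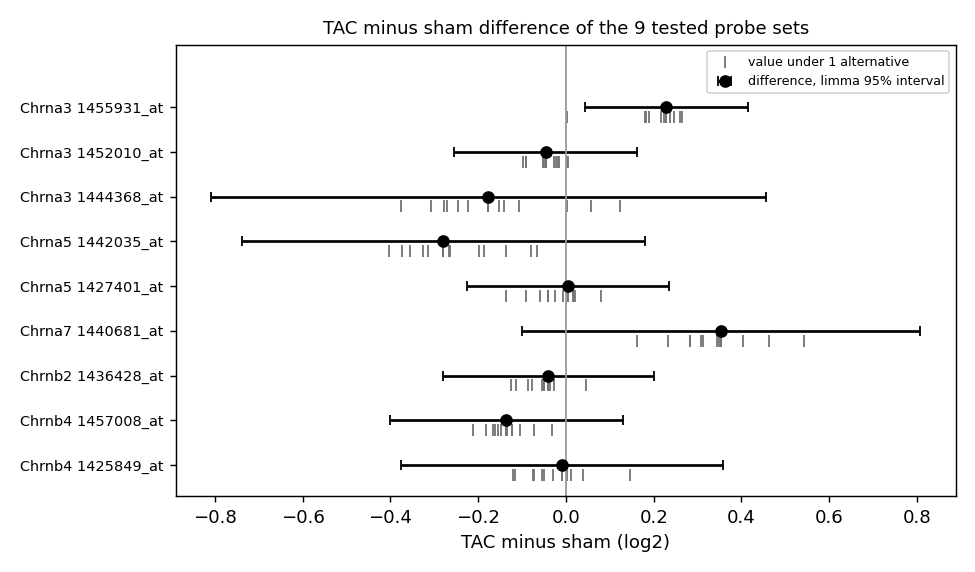
TAC minus sham log2 differences (points) with limma's 95% intervals (bars) for the 9 tested probe sets, and below each point a tick for its value under each alternative setting. The tick for probe sets averaged is the value of the gene. Of the 9 intervals, that of Chrna3 1455931_at alone lies above 0, before any adjustment for the 17550 probe sets tested.

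The intervals bound what these arrays could show. Over the 9 probe sets they reached from -0.81 (Chrna3 1444368_at) to 0.81 (Chrna7 1440681_at) on the log2 scale, or 0.571-fold to 1.75-fold. The narrowest were those of the 2 bright Chrna3 probe sets, at 0.04 to 0.42 for 1455931_at and -0.25 to 0.16 for 1452010_at. The spread within groups was near that of the array as a whole, with a median pooled SD of 0.14 for the 9 and 0.15 for all probe sets tested.

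Chrna4, Chrna6 and Chrnb3, which encode the α4, α6 and β3 subunits, were dim on every array. The 3 Chrna4 probe sets averaged 2.81, 2.71 and 2.31, the 2 Chrna6 probe sets 2.57 and 2.27, and the single Chrnb3 probe set 1.94 on the log2 scale. A dim GCRMA value is near background and does not show that a transcript was missing. Among the 9 dim subunit probe sets, 8 had lower means in TAC ganglia, and for 5 of the 9 every TAC array lay below every sham array. That pattern was general to dim probe sets: of all 27487, 87.0% had lower means on the TAC arrays and 71.6% had all TAC arrays below all sham arrays. The median log2 difference was -0.04 for the dim subunit probe sets and -0.04 for all dim probe sets. These shifts are thus not results about the subunits.

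The 7 other nicotinic subunit genes measured here were dim too, and Chrna10 was not analysed here. Chrna1, Chrnb1, Chrnd, Chrng and Chrne, which form the receptor of skeletal muscle, Chrna2, a neuronal subunit, and Chrna9, known from cochlear hair cells, had 11 probe sets with means of 2.04 to 2.77, and 0 of the 11 lay above the floor. For 10 of the 11 every TAC array lay below every sham array, against 71.6% of all dim probe sets. Skeletal muscle transcripts were present on some arrays, as the fast myosin gene Myh4 measured 6.45, 3.49 and 2.55 on TAC A, B and C, against 7.25, 2.65 and 8.17 on sham A, B and C. Of 9 listed muscle markers 4 were measured above the floor, with mean log2 intensities of 3.63 to 5.73 in TAC and 3.39 to 7.71 in sham ganglia. The muscle-type subunits nevertheless stayed dim on the arrays with the most Myh4, with Chrna1 at 2.13 on sham A and 2.16 on sham C. Brown fat markers, 5 of 7 measured, averaged 6.71 to 8.34 in TAC and 7.14 to 9.42 in sham ganglia, with Ucp1 highest on sham C and TAC B. Fibroblast markers, 6 of 6 measured, averaged 8.86 to 9.54 in TAC and 9.32 to 9.33 in sham ganglia. At an unadjusted p under 0.05, 1 of the 6 was higher and 1 lower, against 5.43% and 3.32% of all genes. They were the matrix gene Dcn at 0.26 and the collagen gene Col1a1 at -0.60 (limma adjusted p = 0.544 and 0.546). Over all 9 tested probe sets of these genes, 1 was higher and 2 lower at that p, against 6.03% and 3.05% of all probe sets tested. The other lower one was Col1a2 1423110_at at -0.41 (limma adjusted p = 0.542). Without both sham C and TAC B, the Chrna7 difference was 0.16 and that of Chrna5 1442035_at -0.067, while that of Chrna3 1455931_at was 0.19. The part of the fat, muscle and fibroblast transcripts in these values was not tested.

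**Figure D4:**
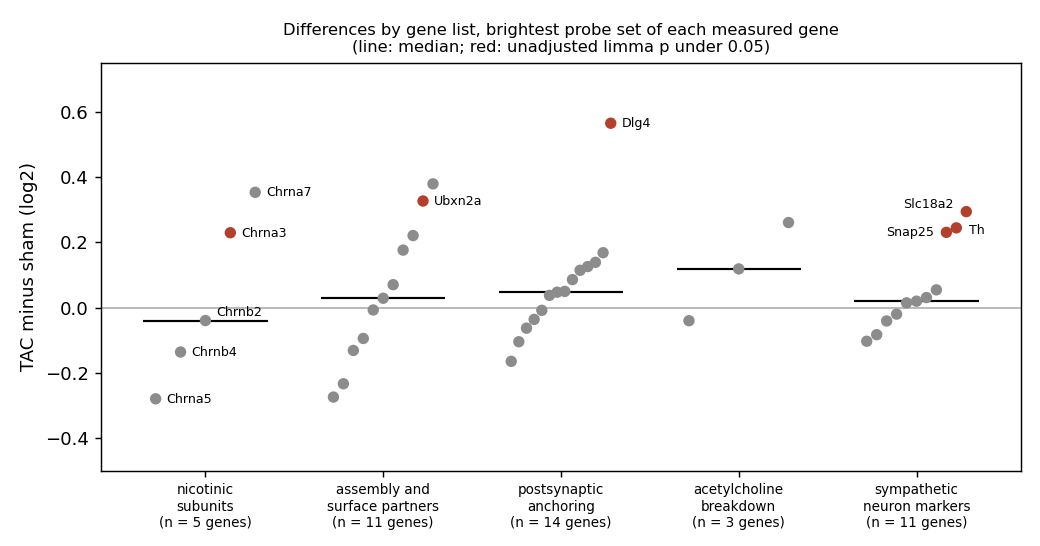
TAC minus sham log2 difference (y axis) of each measured gene, by its brightest probe set, in 5 gene lists; lines are list medians and red points have an unadjusted limma p under 0.05. The medians lie between -0.04 for the subunits and 0.12 for acetylcholine breakdown, and no gene passed after adjustment.

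Genes that assemble, hold or regulate the receptors were compared by the brightest probe set of each gene, and limma called none of them (0 in each list, against 0% of all probe sets tested). Of 11 measured assembly and surface partners, 1 was higher and 0 were lower at an unadjusted p under 0.05, against 5.43% and 3.32% of all genes, with a list median of 0.03 against 0.02 for all genes. The one was Ubxn2a, a ubiquitin-like domain protein known to regulate the surface level of α3 receptors. It measured 9.47, 9.73 and 9.59 on TAC A, B and C, against 9.23, 9.24 and 9.34 on sham A, B and C, with groups apart and a log2 difference of 0.33 (SE 0.09, limma adjusted p = 0.516). Its other tested probe set, 1425019_at, was at -0.12. Over all 19 tested probe sets of the list, 3 were higher and 1 lower at that p, against 6.03% and 3.05% of all probe sets tested. Besides Ubxn2a, they were Vsnl1 1450055_at at 0.35, Canx 1428935_at at 0.40 and Hspa5 1447824_x_at at -0.37 (limma adjusted p = 0.516 for each). The assembly chaperones Tmem35a, at -0.0074, and Ric3, at 0.22 (limma adjusted p = 0.985 and 0.759), and the toxin-like modulator Lynx1, at -0.13 with all TAC arrays below all sham arrays (limma adjusted p = 0.582), are named for their roles, after their values were seen. The second probe sets of Ric3 and Lynx1 were at -0.19 and 0.0039 and overlapped. Lypd6, a related modulator with a mean just above the floor, was at 0.38 with all TAC arrays above all sham arrays (limma adjusted p = 0.551). Only TAC B and C lay above the floor, while TAC A and every sham array lay just under it. The probe set was thus tested because of its higher group, and no difference is read from its separation. Lypd6 1456138_at and 1457843_at were dim and overlapped. Groups did not overlap for 3 of the 11 genes, Ubxn2a, Lynx1 and Lypd6, against 17.9% of all genes.

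Among 14 measured genes of postsynaptic anchoring, 1 was higher and 0 were lower at an unadjusted p under 0.05, against 5.43% and 3.32% of all genes, with a list median of 0.05. This was Dlg4, which encodes the scaffold protein PSD-95. It measured 6.31, 5.97 and 6.31 on TAC A, B and C, against 5.91, 5.61 and 5.37 on sham A, B and C. All TAC arrays lay above all sham arrays, TAC B by a narrow margin, and the log2 difference was 0.56 (SE 0.17, 1.48-fold, limma adjusted p = 0.516). Dlg4 1419581_at and 1460261_at were dim. The related scaffold gene Dlg2, named after its value was seen, differed by 0.17 with groups apart (limma adjusted p = 0.588). Its second tested probe set, 1421199_at, was at 0.42 and overlapped (limma adjusted p = 0.681). Groups did not overlap for 2 of the 14, Dlg4 and Dlg2, against 17.9% of all genes. Over all 25 tested probe sets of the list, 3 were higher and 0 lower at an unadjusted p under 0.05, against 6.03% and 3.05% of all probe sets tested. Besides Dlg4, they were Mapre1 1422765_at at 0.42 and Iqgap1 1417380_at at 0.43 (limma adjusted p = 0.518 and 0.542). The muscle synapse genes Rapsn, Musk and Lrp4 were dim, as was Nlgn1.

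For acetylcholine breakdown, no gene had an unadjusted p under 0.05. Ache, the acetylcholinesterase gene, averaged 10.75 in TAC and 10.63 in sham ganglia, a log2 difference of 0.12. Its membrane anchor Prima1 differed by 0.26 and Bche, which encodes butyrylcholinesterase, by -0.04 (limma adjusted p = 0.749, 0.583 and 0.951 for Ache, Prima1 and Bche). Colq, the collagen tail of the muscle enzyme, was dim.

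Of 8 measured transcription factors linked to the ganglionic subunit genes, 0 were higher and 1 was lower at an unadjusted p under 0.05, against 5.43% and 3.32% of all genes. That one was the immediate-early factor Egr1, at 9.31, 8.63 and 9.11 on TAC A, B and C, against 10.66, 10.61 and 9.87 on sham A, B and C (log2 difference -1.37, limma adjusted p = 0.512). Sp1 was 0.30 higher with groups apart (limma adjusted p = 0.553), while its second probe set above the floor, 1454852_at, was at 0.12 and overlapped. Insm1, a zinc finger factor of neuroendocrine cells, was at -0.94 with all TAC arrays below all sham arrays (limma adjusted p = 0.549). Groups did not overlap for 3 of the 8, Egr1, Sp1 and Insm1, against 17.9% of all genes. Phox2a, which specifies autonomic neurons, differed by 0.05.

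Some genes near the chromosome 9 cluster were examined as well, all from a list that leaves out Ube2q2, the gene directly beside Chrnb4. Psma4, the proteasome subunit gene directly beside Chrna5, differed by 0.0023 on the log2 scale, and Ireb2, with 3 protein-coding genes between it and the cluster, by -0.10. Crabp1, which has 4 genes between it and the cluster and encodes a retinoic acid binding protein, measured 5.84, 5.68 and 5.70 on TAC A, B and C, against 7.14, 7.36 and 6.60 on sham A, B and C. Its groups were apart, with a log2 difference of -1.29 (SE 0.19, limma adjusted p = 0.512). Of the 4 measured genes of the list, 0 were higher and 1, Crabp1, was lower at an unadjusted p under 0.05, against 5.43% and 3.32% of all genes. Groups did not overlap for 1 of the 4, again Crabp1, against 17.9% of all genes. The subunit genes of the cluster had differences of -0.28 to 0.23. Acsbg1, further out with 7 genes between, differed by 0.07, and Hykk was dim.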

How the data were processed

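Gene expression in stellate ganglia of 3 TAC and 3 sham mice was measured on 6 Affymetrix arrays, 1 per animal per the labels' protocols. The submitters' processing notes name GCRMA as the tool by which the authors made the deposited intensity values, which are on a linear scale; no version or setting of it was given. GCRMA corrects background, normalizes between arrays and compresses values near background. The values were log2-transformed without a pseudocount. The 64 control probe sets were left out, and 27487 probe sets with a mean log2 under 4 were not tested, which left 17550. TAC was compared with sham by limma 3.58.1 (R 4.3.3; lmFit, eBayes, two-sided, Benjamini-Hochberg adjustment over all tested probe sets, threshold 0.05); standard errors and 95% intervals are limma's moderated ones. Arrays correlated at 0.980 to 0.994. With 3 arrays a group, precision is limited by their number. The fit was tested on simulated data.

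Gene names came from GEO's platform annotation, and sequences from RefSeq (GRCm38.p6). Every probe set of the 8 genes is reported; from related lists the genes whose brightest probe set had an unadjusted p under 0.05 were named, with every measured gene of the other nicotinic subunits and of acetylcholine breakdown. Any other gene was picked once its values were known. The members and lists were chosen with earlier results of these data known. Some listed genes are not reported here. Figures were drawn with matplotlib 3.10.9.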

Additional observations from a re-analysis of the deposited data

How the results depend on the processing

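No alternative called a nicotinic subunit probe set. The count stayed at 0 under each setting, including 0 with each array left out in turn, and with the title letter as a replicate block it was 0 of 9. The letters did not pair the arrays, since deviations from the group means correlated at 0.08, -0.0031 and -0.17 for A, B and C. Over all probe sets the count was 0 with the settings reported, 0 with the replicate block, 0 to 1 with 1 array left out (Mir670hg without TAC B, Sst without TAC C), 2 with the mean of each gene's tested probe sets (Sst and Cartpt, named after their values were seen) and 110 at an unadjusted p under 0.01 with a log2 difference of at least 0.58. At an unadjusted p under 0.05, the subunit count was 1 of 9 with the settings reported. It was 0 of 9 with median centring, with the replicate block, without TAC C, without sham C, and without both sham C and TAC B. With probe sets averaged it was 0 of 5 genes, with no floor 3 of 18, and 1 of 8 with the floor of mean log2 6. It was 1 of 9 under the other settings. Chrna3 1455931_at, Chrna5 1442035_at, Chrna7 1440681_at and Chrnb4 1457008_at kept their direction in all 16 alternatives. For several settings that was fixed in advance, as they leave the difference itself unchanged. These were no floor, the floor of mean log2 6, the trend and robust variance, and the replicate block. For Chrna7 1440681_at it was also the probe set average, as no other Chrna7 probe set was tested. The groups of Chrna3 1455931_at do not overlap, so its sign was also fixed with arrays left out, array weights or a pseudocount. The kept direction is no added support there. Each of the 5 tested probe sets not named as keeping its direction changed sign in some. With probe sets averaged, the value is that of the gene and not of a single probe set, 0.0024 for Chrna3 and -0.14 for Chrna5. Chrna5 1427401_at was at -0.041 with quantile normalization, -0.041 with median centring, -0.14 with probe sets averaged, -0.090 without both sham C and TAC B, and -0.060 (without sham C) to 0.079 (without sham A) with 1 array left out, also below 0 without TAC B (-0.026) and sham B (-0.0057). Chrnb4 1425849_at was at 0.0033 with array weights and -0.12 (without sham A) to 0.15 (without sham B) with 1 array left out, also above 0 without TAC A (0.040) and TAC C (0.011). Chrna3 1444368_at was at 0.057 with array weights, 0.0024 with probe sets averaged, and -0.38 (without sham C) to 0.12 (without sham B) with 1 array left out. Chrna3 1452010_at was itself above 0 only without both sham C and TAC B, at 0.0043. Chrnb2 1436428_at was at -0.11 (without TAC B) to 0.045 (without TAC A) with 1 array left out. The cause was not tested.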
